A study of Mus musculus with 84 samples.

Results

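Of 43629 genes counted in the amygdala's central nucleus (CeA) of outbred mice, 66 autosomal genes were chosen. They were read at 5 CPM or more in some animals and at 0.5 CPM or less in others. So were further genes that the limits below left out. CPM is the count of a gene in a library whose total is scaled to 1000000. The 66 members were chosen on these values: a 90th percentile of at least 5 CPM and a 10th percentile of at most 0.5 CPM over the 84 animals, with an absolute Spearman rho under 0.3 against each of 5 marker genes of neighbouring tissue (Ttr, Avp, Adora2a, Slc17a7 and Dcn). Genes on X and Y and those named H2-, Hba, Hbb, Ifi, Oas or Gbp were left out. The marker limit left 77 of the genes within the percentile limits, the loss of X and Y 67, and that of the name families 66. The spread of each member over animals is therefore a consequence of the choice and is given below as a description, with no test.

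The animals, 43 females and 41 males, were of an outbred stock, Heterogeneous Stock Collaborative Cross (HS-CC), each giving 1 poly(A), stranded library from bilaterally laser-dissected CeA. Every animal, of either sex, was about 15 weeks old at the start (the median) and could drink 10% ethanol or water for 13 weeks, and ethanol stayed available until death, so no group was without ethanol. Mean ethanol preference, the share of fluid taken from the ethanol tube, had a median of 0.229 in females and 0.153 in males. Up to 3 animals came from 1 family, families are not given per animal in the sources used here, and the animals were thus not fully independent. Library totals ran from 24118965 to 42036566 counts, so 3 counts, the limit that a count of 0 allows, were worth 0.0714 to 0.124 CPM. The GABA neuron markers Gad1 (median 495 CPM) and Gad2 (317 CPM) were read in all animals. So were the CeA peptide genes Penk (423 CPM) and Sst (355 CPM). The further CeA markers Prkcd, Tac2, Nts, Crh and Calcrl had medians between 6.83 CPM (Crh) and 22.6 CPM (Nts). Of the genes of neighbouring tissue, Slc17a7 had a median of 1354 CPM, and Ttr ran from 0.0935 to 24174 CPM. No 2 libraries held identical columns.

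HS-CC mice descend from several inbred founder strains, so a gene or a gene copy can be present in, or read from, some animals and not others. A processed pseudogene is a copy of a messenger RNA written back into the genome, usually without introns and often on another chromosome than its source. Such copies can differ between mouse strains, and their sequence can be close enough to the source for short reads to match both.

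Most members were such copies. In the GENCODE vM21 annotation of the same build, GRCm38, 41 of the 66 (62.1%) were processed pseudogenes, against 2.61% of the 17775 genes tested, and 14 (21.2%) were protein-coding genes, against 86.9%. Of the 65 members with a transcript sequence, 52 had an expressed or mitochondrial gene to which they were at least 95% identical over at least 50% of their length, called the closest gene here. In 49 the closest gene was nuclear and in 3 mitochondrial, and 45 of the 49 lay on another chromosome than their closest gene. Median identity was 98.9%, with 1 to 49 mismatches and a median of 8. Ribosomal protein genes were the closest gene of 17 members. A median of 63.1% of the 50-base words of a member's transcript also occurred in transcripts of other genes, and at least 10% did so in 58 of 65 members (89.2%), against 10.6% of the genes tested.

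Pieces of 60 bases show copy and source where they are least alike. Each piece is the window with the most mismatches within the coding part of the closest gene, so it is not typical of the pair. The pieces are GENCODE vM21 transcript sequence on GRCm38, 5′ to 3′, aligned without gaps. Capitals mark the bases at which the member and its closest gene differ. The first 3 pairs have closest genes that lie together on chromosome 10: Eef2, the elongation factor that moves the ribosome along the messenger RNA, Rps15, a protein of the small ribosomal subunit, and Lsm7, which takes part in RNA splicing and decay. The windows are chr4:143243187-143243246 (minus strand) for Gm13050 and chr10:81180161-81180220 (plus) for Eef2, then chr6:58017682-58017741 (plus) for Rps15-ps2 and chr10:80293729-80293788 (plus) for Rps15. The Gm13182 window is chr2:3550801-3550860 (plus), and that of Lsm7 crosses a splice junction within chr10:80853823-80854670 (minus).
Gm13050: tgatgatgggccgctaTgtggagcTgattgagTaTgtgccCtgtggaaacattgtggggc
Eef2: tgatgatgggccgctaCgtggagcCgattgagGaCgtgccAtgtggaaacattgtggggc
Rps15-ps2: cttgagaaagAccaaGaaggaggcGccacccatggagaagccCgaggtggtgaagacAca
Rps15: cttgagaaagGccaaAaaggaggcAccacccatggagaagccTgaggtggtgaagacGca
Gm13182: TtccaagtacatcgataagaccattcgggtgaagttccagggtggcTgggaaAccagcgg
Lsm7: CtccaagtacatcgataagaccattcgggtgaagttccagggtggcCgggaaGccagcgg

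The other 3 pairs are those whose counts are set side by side below. Ndufs5 encodes a subunit of respiratory complex I, Rps3a1 a protein of the small ribosomal subunit, and Got2 the mitochondrial aspartate aminotransferase. Their windows are chr16:42955693-42955752 (plus) for BC002163 and chr4:123715958-123716017 (minus) for Ndufs5, chr13:108670810-108670869 (plus) for Rps3a3 and chr3:86141326-86141385 (minus) for Rps3a1, and chr5:138365048-138365107 (minus) for Got2-ps1 and chr8:95872268-95872327 (minus) for Got2.
BC002163: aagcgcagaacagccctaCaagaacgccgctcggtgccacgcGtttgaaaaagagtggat
Ndufs5: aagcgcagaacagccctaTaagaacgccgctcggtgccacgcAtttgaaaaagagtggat
Rps3a3: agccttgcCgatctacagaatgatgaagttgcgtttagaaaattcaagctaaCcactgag
Rps3a1: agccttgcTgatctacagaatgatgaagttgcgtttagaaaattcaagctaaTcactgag
Got2-ps1: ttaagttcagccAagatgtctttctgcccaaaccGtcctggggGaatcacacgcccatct
Got2: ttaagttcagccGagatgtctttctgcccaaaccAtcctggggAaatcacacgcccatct

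By fixed limits of 0.5 and 5 CPM, the name all-or-none held for fewer than 1 in 2 of the members. In 30 of 66, at most 10% of animals (8 of 84) had a value strictly between 0.5 and 5 CPM, and these are called two-level here. The other 36 were called graded, with more animals in between. The term rests on these limits alone, and a graded member can still have separate levels. In Gm10068, with 29 animals in between, the highest low animal had 0.0582 CPM. In Gm13339 the 22 high animals had a median of 1322 CPM. Of the two-level members 27 were near copies, and of the graded members 25. In all 66 members both sexes held low and high animals, and in 56 of them, 28 of the 30 two-level members among these, so did each of the 4 runs of sample-sheet numbers that were taken as possible batches.

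**Figure D1:**
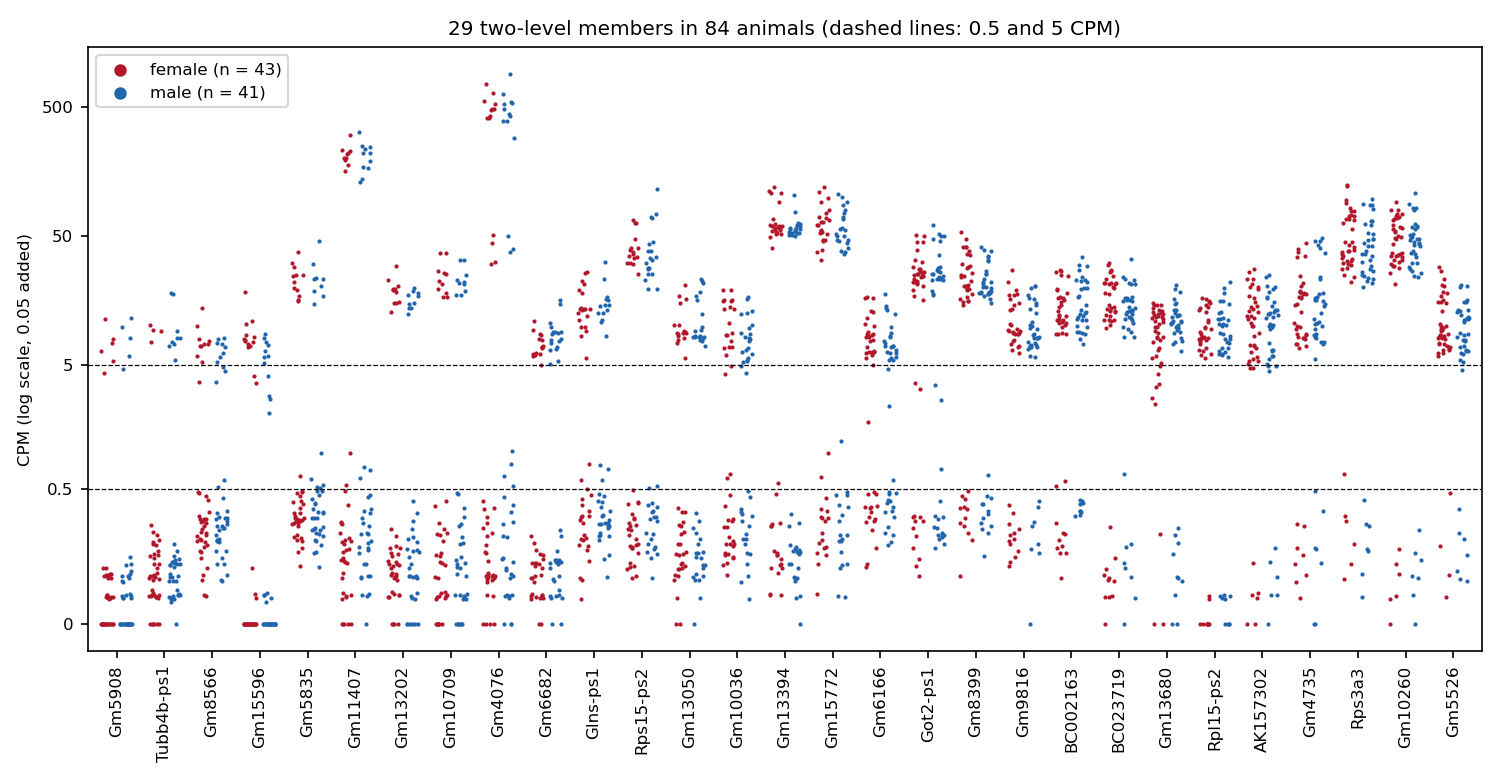
CPM of 29 of the 30 two-level members (columns, ordered by the number of animals at 5 CPM or more) in 43 females (red, left) and 41 males (blue, right), 1 point per animal, on a log scale with 0.05 CPM added. Few points lie between the dashed lines at 0.5 and 5 CPM, and both sexes have animals above and below them.

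Of the serially named members with no animal in between, the 5 with the highest 90th percentiles were near copies of Rps18, Eno1b, Rpl29, Chchd2 and Gps1. Gm10260 (chr13:97760130-97760588), a near copy of the small-subunit ribosomal protein gene Rps18, had a lowest value of 0, a median of 37.1 and a highest value of 90.6 CPM in females, and 0, 42.6 and 107 CPM in males. It was low in 13 animals and high in 71, with none in between, and the lowest high animal had 21.1 CPM. Gm4735 (chr2:80837141-80838442), a near copy of the enolase gene Eno1b, had 0.0286, 9.91 and 44.2 CPM in females and 0, 10.6 and 48.3 CPM in males. It was low in 15 animals and high in 69. In both members the sexes overlapped over nearly the whole range.

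The reverse held for Gm10709 (chr9:7751672-7752325), a near copy of the large-subunit ribosomal protein gene Rpl29, and for Gm13202 (chr4:148068031-148068492), a near copy of Chchd2, which encodes a mitochondrial protein. Each was low in 63 animals and high in 21, made up of 11 females and 10 males. Gm10709 had a lowest value of 0, a median of 0.117 and a highest value of 36.7 CPM in females, and 0, 0.106 and 32.8 CPM in males. Gm13202 had 0, 0.0952 and 29.2 CPM in females, and 0, 0.128 and 19.8 CPM in males. The medians of both genes lay near the worth of 3 counts, so most animals of either sex held almost no reads of them. Gm9816 (chr16:62717037-62718450), a near copy of Gps1, which encodes a subunit of the COP9 signalosome, was high in 30 of 43 females and 33 of 41 males.

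Among the two-level members with a name other than a serial one, BC023719 (chr17:36111426-36117121), annotated as antisense and not a near copy, was high in 32 females and 33 males, and had 0, 13.2 and 30.9 CPM as lowest, median and highest value in females, and 0, 12.8 and 33 CPM in males. It overlaps the histocompatibility gene H2-T10, the gene most alike to it over the 84 animals (Spearman rho 0.82), and its reads cannot be told apart from those of an overlapping gene without the strand setting of the counting. AK157302 (chr13:21495223-21497146), a near copy of the iron-sulfur cluster assembly gene Isca1, was high in 35 females and 32 males. BC002163 and Rps3a3 are described with their closest genes.

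At the limits of the choice, Gm14292, Myoc and Pcdhgb8 lay just inside the upper limit, with 90th percentiles of 5.02, 5.04 and 5.09 CPM. Gm12372, Gm9008 and Gm8451 lay just outside it at 4.72, 4.86 and 4.90 CPM. At the lower limit, Zfp738, Pcdhgb8 and Tpm3-rs7 lay inside, with 10th percentiles of 0.395, 0.450 and 0.457 CPM, and Tuba1c, Eps8l1 and Gm5900 outside, with 0.505, 0.509 and 0.514 CPM. Tuba1c is itself the closest gene of a member, Gm6682.

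In most pairs a copy and its closest gene varied less together, relative to their mean, than the closest gene did alone. The variation of their sum, as a coefficient of variation (CV, the SD over the mean of CPM in 84 animals), was below the CV of the closest gene alone in 41 of 49 pairs. It was so in 40 of 49 pairs within females and 41 within males, and in 38, 39, 38 and 40 pairs within the 4 runs. A CV of a sum can fall because the mean grows, also where the values of both genes are unrelated, so 41 of 49 alone shows no relation. The SD itself was lower in 34 of the 49. In 38 of the 49 the SD of the sum was below that of unrelated values, the root of the summed variances. The fall in CV was slight in some of the 41 pairs, from 19.32% to 19.29% for Gm8566 and from 25.02% to 24.91% for Gm10073. Both of these members had a rho above 0 with their closest genes (0.23 and 0.13). The pairs named next, other than those of BC002163, Rps3a3 and Gm10260, were chosen after their values were seen.

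For BC002163 (chr16:42955631-42955949) the sum had a CV of 18.5%, against 68.1% for Ndufs5 alone. BC002163 had a lowest value of 0.0631, a median of 11.1 and a highest value of 27.2 CPM in females, and 0.293, 11.7 and 34.2 CPM in males. Ndufs5 had 0.833, 13.6 and 35.2 CPM in females, and 0.471, 11.6 and 32.5 CPM in males. Their sum had 17, 25.4 and 37.5 CPM in females, and 17.3, 23.5 and 40.5 CPM in males. Each gene alone came close to 0 in some animals of both sexes, and the sum did so in none. The share of BC002163 in the sum ranged over 0.291% to 96.7% in females and 0.911% to 97.7% in males. Its 2 widest gaps, 2.29% to 38% and 57.1% to 91%, left 20 animals below, 44 between and 20 above.

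Rps3a3 (chr13:108670603-108671397) had a lowest value of 0.0609, a median of 37.8 and a highest value of 124 CPM in females, and 0.0309, 34.7 and 97.1 CPM in males. Rps3a1 had 25.1, 98.5 and 220.8 CPM in females, and 26.5, 95.9 and 261 CPM in males. The sum had a CV of 29%, against 55.0% for Rps3a1. All 12 animals low for Rps3a3 had more Rps3a1 than the median of the 84. Its share of the sum fell into 13, 44 and 27 animals, with the widest gaps at 0.378% to 20.6% and 25.4% to 60.4%.

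Got2-ps1 (chr5:138364260-138365552) had 0.0659, 22.3 and 51.1 CPM as lowest, median and highest value in females, and 0.142, 22.5 and 60.7 CPM in males. Got2 had 59.3, 117 and 195.1 CPM in females, and 62.9, 125 and 201 CPM in males. The CV was 14.7% for the sum and 27.1% for Got2, and all 25 animals low for Got2-ps1 lay above the median of Got2. Tpm3-rs7 (chr14:113314608-113316713), a near copy of the tropomyosin gene Tpm3, gave the lowest CV of these 4 sums, 10.6%, against 23.1% for Tpm3 alone. Its share of the sum fell into 19, 48 and 17 animals, and that of Got2-ps1 into 30, 43 and 11. The rule of the widest 2 gaps always gives 3 sets, so the number of sets is no result, and their widths are a description.

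**Figure D2:**
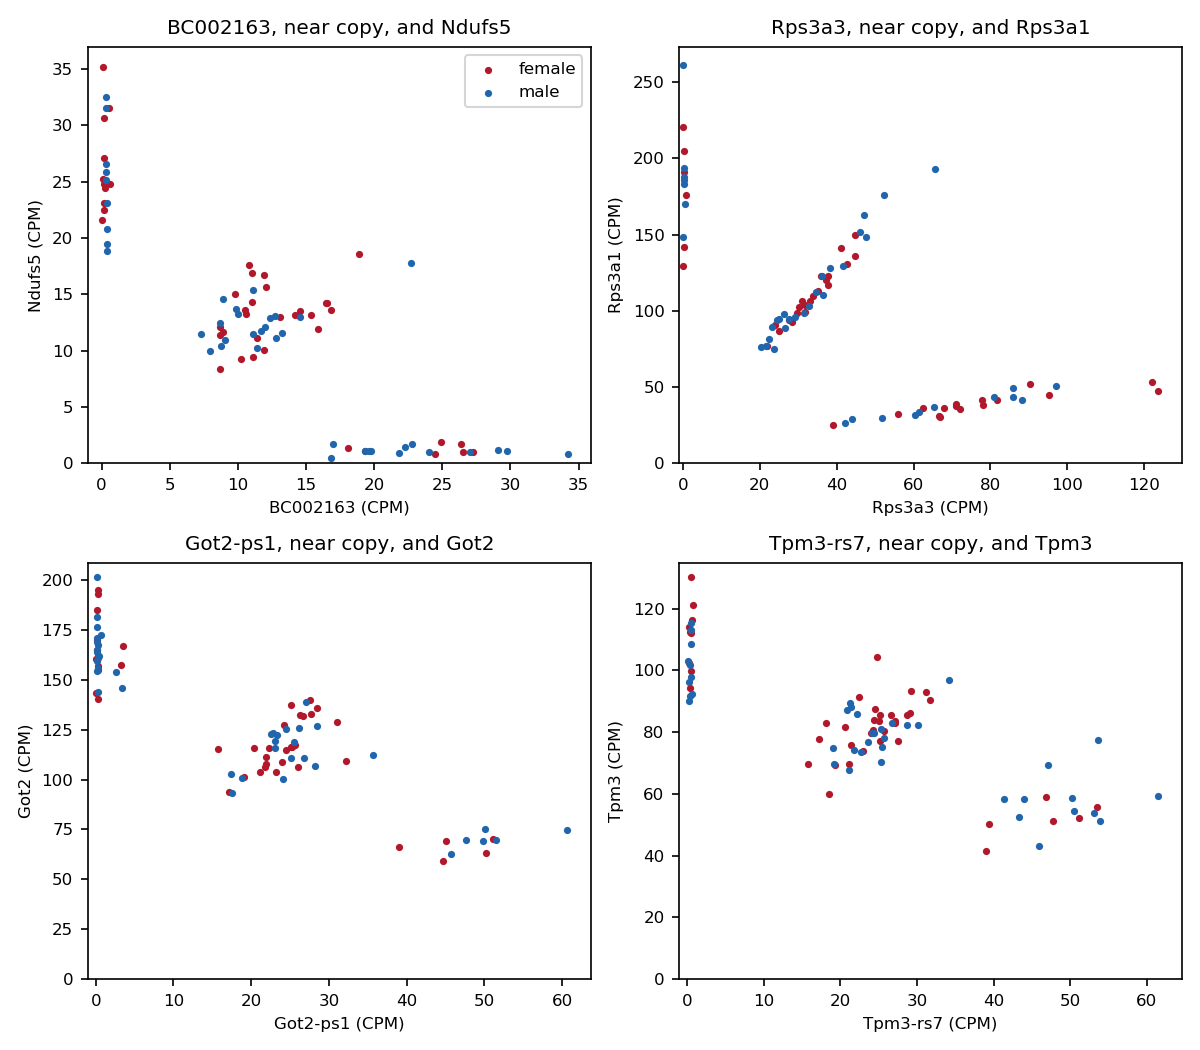
CPM of 4 members (x axes) against CPM of their closest genes (y axes), 1 point per animal, 43 females in red and 41 males in blue. In each panel animals near 0 for the member lie high for the closest gene.

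Further pairs did the same at other levels. The CV of the sum was 27.2% for Gm10260 with Rps18, against 46.4% for Rps18 alone. It was 35.7% for Gm15772 with the large-subunit ribosomal protein gene Rpl26, against 55.9% for Rpl26. Graded members showed it too: for Gm10068 with the heterochromatin protein gene Cbx3 the sum had 17.5% and Cbx3 32.5%. In 8 of the 49 pairs the sum varied more than the closest gene. For Gm10709 the CV was 103% with Rpl29 added and 57.4% for Rpl29, and all 21 animals high for Gm10709 lay above the median of Rpl29. Gm6682 (87.3% for the sum, 81.5% for Tuba1c) and Gm4735 (49.7% for the sum, 46.8% for Eno1b) were further such pairs. How reads that match several places were handled is not given in the sources used here, and its part in these values was not tested.

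**Figure D3:**
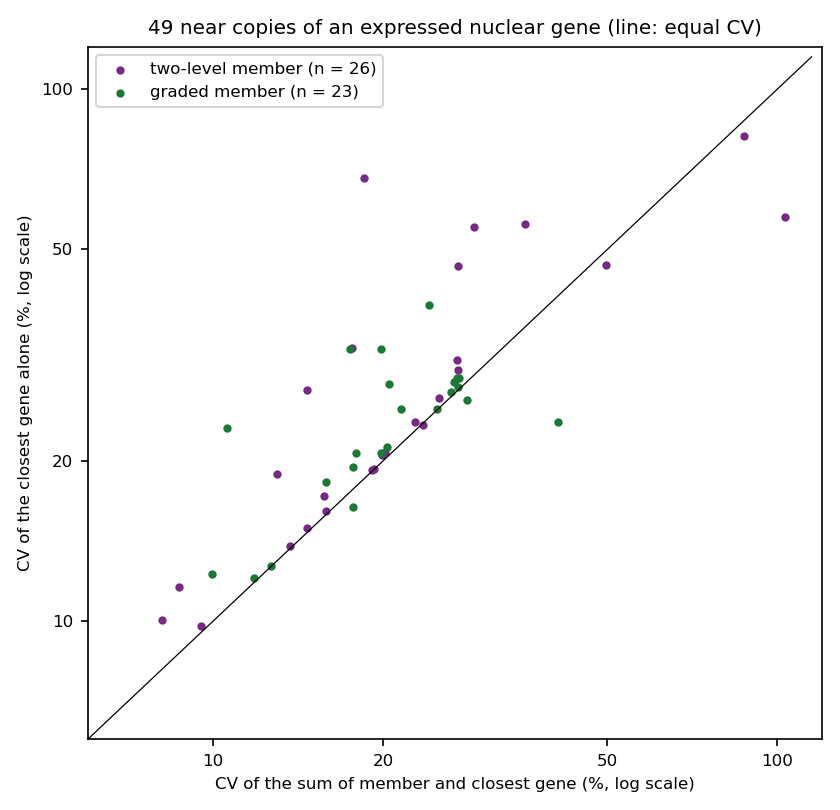
CV over 84 animals of the summed CPM of member and closest gene (x axis, %) against that of the closest gene alone (y axis, %), both on log scales, for 49 near copies, purple for two-level and green for graded members. Points above the line of equal CV, 41 of 49, are pairs whose sum varied less than the closest gene.

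Gm13050, Rps15-ps2 and Gm13182, on different chromosomes but with neighbouring closest genes, were high in overlapping sets of animals. Gm13050 is on chromosome 4, Rps15-ps2 on 6 and Gm13182 on 2, while Eef2, Rps15 and Lsm7 lie within 0.883 Mb of each other on chromosome 10. Gm13050 had a lowest value of 0, a median of 0.240 and a highest value of 20.7 CPM in females, and 0, 0.310 and 23.1 CPM in males. Rps15-ps2 had 0.0629, 0.278 and 66.6 CPM in females, and 0.0619, 0.533 and 114 CPM in males. Of 37 animals high for Gm13050, 36 were high for Rps15-ps2 and 1 was low. The 24 animals high for Gm13182 were all high for Gm13050, and the 47 low for the one were the 47 low for the other. Gm13182 had 13 animals in between, and reached 13.9 CPM in females and 18.3 CPM in males. All 3 members were high in 23 animals, 12 females and 11 males, of the 37 high for any of them. The 36 animals high for both Gm13050 and Rps15-ps2 were 16 of 43 females and 20 of 41 males, and numbered 10, 3, 6 and 17 in the 4 runs.

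**Figure D4:**
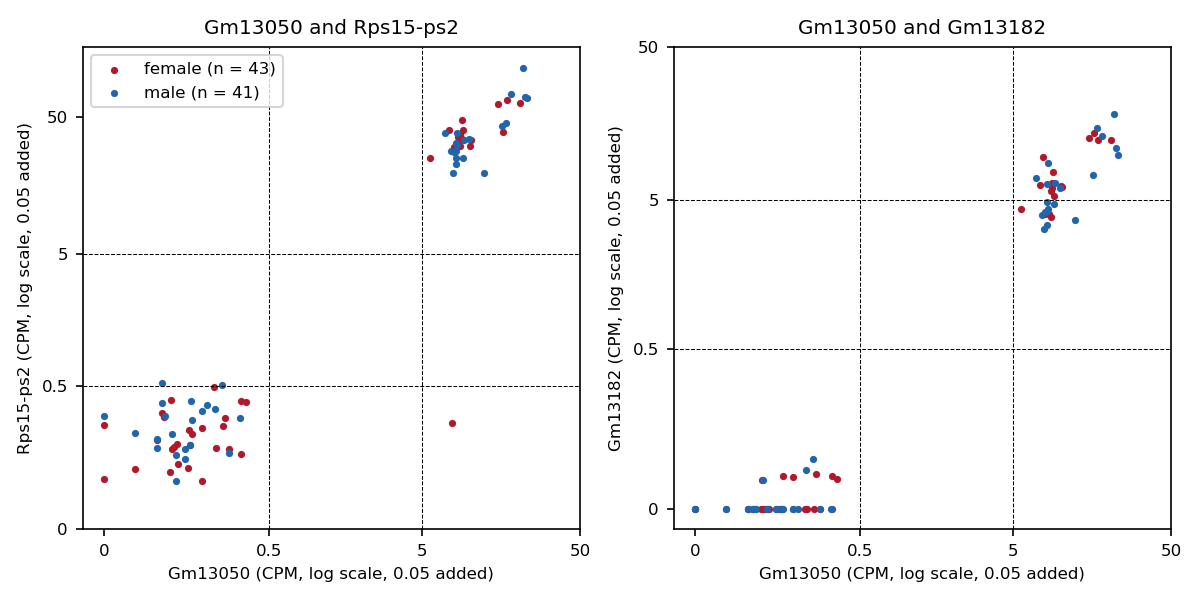
CPM of Gm13050 (x axes) against Rps15-ps2 (left) and Gm13182 (right), 1 point per animal, 43 females in red and 41 males in blue, on log scales with 0.05 CPM added, dashed lines at 0.5 and 5 CPM. In the left panel 45 animals are low for both genes and 36 high for both, and no animal is high for the one gene and low for the other in the right panel.

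Other members with the same or neighbouring closest genes shared animals to differing extents. Gm16477 and Gm5619, on chromosomes 7 and 9, share the closest gene Rpl7a of the large ribosomal subunit and were low in the same 27 animals (rho of their CPM 0.94). Gm14150 and Gm6682, whose closest genes are the alpha-tubulin genes Tuba1b and Tuba1c, were both high in 33 animals, which are all 33 high for Gm6682 and 33 of the 47 high for Gm14150. Gm8730 and Gm9625 share Rplp0, and the 10 animals low for Gm8730 were all low for Gm9625. Gm5526 and Rps26-ps1, whose closest genes Myl6 and Rps26 are 0.131 Mb apart, were both low in 11 animals, which are all 11 low for Gm5526 and 11 of the 28 low for Rps26-ps1. Tpm3-rs7 and Rps3a3 are a counterexample: their closest genes are 3.93 Mb apart on chromosome 3, and no animal was low for both. Members that are themselves neighbours were few: Gm10073 and Rps26-ps1, 0.866 Mb apart, were both low in 12 animals and both high in 0, and Zfp738 and Gm9625, 0.123 Mb apart, were both low in 11 and both high in 2.

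The gene most alike to each member, by the largest absolute Spearman rho over 84 animals, was then placed. It lay within 1 Mb of the member itself for 7 of 66 members (background 5.02% of the genes tested, each with its own most alike gene) and had an absolute rho of 0.45 to 0.97. For the 49 near copies it lay within 5 Mb of the closest gene in 22 and within 5 Mb of the member in 0. In 7 of these 22 it was the closest gene itself. After sequence relatives of the member were left out and partners limited to protein-coding genes, settings chosen after the data were seen, the counts were 30 of 49 near the closest gene and 0 of 49 near the member. A 5 Mb window around the closest gene held a median of 0.653% of the genes tested, and one around the member 0.332%. Of the genes tested, 7.47% had their own most alike gene within 5 Mb of themselves, with all partners allowed. Examples are Surf6, a nucleolar protein gene near Rpl7a, for Gm16477 (rho 0.80) and Gm5619 (0.81), Gm9903 for Gm5814 (0.83), whose closest gene is Mrfap1, and Atp6v0a4, a proton pump subunit gene, for Gm12138 (0.75), whose closest gene is the aldose reductase gene Akr1b3. The sign of rho was the same in all 4 runs for 30 of these 30 partners and for 18 of the other 19, though the partners were picked on all 84 animals. These correlations describe animals that share families, and carry no test.

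Copies of mitochondrial genes formed a set of their own. All 37 mitochondrial genes were listed at 0 in every library. Gm13339 (chr2:22590024-22590533, closest gene mt-Nd2), Gm4076 (chr13:85126999-85127514, mt-Nd5) and Gm11407 (chr4:80002331-80003388, mt-Nd5 at 92.3% identity, under the near-copy limit) resemble genes of respiratory complex I. Gm13339 reached the highest level per length of all members, with a mean of 686 CPM per kb. It had a lowest value of 0, a median of 0.444 and a highest value of 1898 CPM in females, and 0.0331, 0.685 and 2213 CPM in males. Gm4076 reached 753 CPM in females and 888 CPM in males, and Gm11407 301 and 317 CPM. All 3 were high together in 21 animals, 10 females and 11 males, numbering 4, 6, 4 and 7 in the 4 runs. Gm29216 (chr1:24615706-24616197), with 1 mismatch to mt-Co1 of respiratory complex IV, was low in 21 animals, and these were the same 21.

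Of the members that were not near copies, several are protein-coding genes of other tissues or uses. Prl encodes prolactin, a hormone of the anterior pituitary. It had a lowest value of 0, a median of 0.668 and a highest value of 35.9 CPM in females, and 0, 0.0307 and 10.0 CPM in males. It was high in 9 females and 1 male and low in 20 females and 37 males. The gene most alike to it was Gh, growth hormone (rho 0.75), which reached 13.4 CPM in females and 35.5 CPM in males. The 5 pituitary markers (Gh, Prl, Lhb, Tshb and Cga) summed to 0.0296 to 50.4 CPM in females and 0 to 47.7 CPM in males, and 1 of the 5 had a median of 0. Their part in the values of Prl was not tested.

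Slc47a1 encodes a transporter of organic cations. It had 0.0326, 2.17 and 10.1 CPM as lowest, median and highest value in females, and 0.0286, 1.65 and 16.0 CPM in males. Its most alike gene was the forkhead factor gene Foxc2 (rho 0.93), and its rho with the score of 6 markers of meninges and fibroblasts was 0.62. That list summed to 40.3 to 1146 CPM in females and 26.9 to 832 CPM in males, and its part in Slc47a1 was not tested. Rmrp, the RNA of the enzyme RNase MRP, had a median of 4.40 CPM in females and 1.71 CPM in males, and was most alike to Rpph1, the RNA of RNase P (rho 0.97). It was not among the 2 members with an unadjusted p under 0.05 between the sexes by edgeR. Myoc (myocilin), Mael (a germ-line factor of transposon silencing) and Rec8 (a meiotic cohesin) were graded, with 40, 59 and 45 animals in between.

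Over all 15 lists of cell type markers, between 0 and 3 of 66 members had an absolute rho of 0.3 or more with a list's score, at most 4.55%, against 4.03% to 37.5% of the genes tested. The choice of members had already set a limit on 5 markers, so the low counts are in part its consequence. Of 20 genes with known loss or change in inbred strains, 19 were in the table and 17 tested, 0 were members, and 0 passed the adjusted threshold in any comparison below. Members were only 66 of the 17775 genes tested, and few genes passed in any comparison, so counts of 0 in so short a list are no result. The sets of low and high calls over two-level members differed between animals: across 3486 pairs of animals none had the same calls throughout, the median pair agreed in 62.1% of the calls made in both, and the most alike pair in 93.3%. Since these members were chosen for holding low and high animals, such differences follow at least in part from the choice. An animal was high for 7 to 23 of the 30, with a median of 16 in females and 15 in males.

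The study asked whether CeA expression tracks ethanol preference, over all weeks, in week 1 and in week 13, in all animals and in each sex. No member passed the threshold in any of these comparisons or in that of the sexes (adjusted p under 0.05, edgeR's quasi-likelihood test over 17775 genes). DESeq2 and limma-voom called 0 members in each comparison as well. All 66 members were among the genes tested. The members were chosen for a wide spread over animals, so larger SEs than in other genes follow from the choice. For mean preference in all animals, the median SE of a slope was 0.68 over members and 0.12 over all genes tested. Slopes are given in log2 change per 0.5 rise in preference.

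Between the sexes, 0 of 66 members were called (background 0.107%, 19 genes), and 2 of 66 (3.03%) had an unadjusted p under 0.05, against 4.04% of all genes. Prl had the smallest p of the members, with a log2 difference of 2.56 ± 0.62 (SE, 43 females and 41 males, female over male) and an adjusted p of 0.0667 by edgeR. Without the filter on low counts its adjusted p was 0.0311, and with the run as a covariate 0.288. Tubb4b-ps1, a near copy of the beta-tubulin gene Tubb4b, was second: it was high in 4 of 43 females and 9 of 41 males, with a log2 difference of -1.32 ± 0.65 and an adjusted p of 0.986 by edgeR. With the run as a covariate the difference was -2.60 ± 0.75 and its adjusted p 0.540.

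For mean preference in all 84 animals, 0 members were called (background 0%), and 2 (3.03%) had an unadjusted p under 0.05, against 4.34% of all genes. Slopes ran from -3.62 to 2.23, and 35 of 66 were above 0. Tubb4b-ps1 (chr5:7179365-7180699) had the slope of largest size, -3.62 ± 1.14 (SE, n = 84, adjusted p 0.938 by edgeR). It was low in 71 animals, had 0, 0.0670 and 10.1 CPM as lowest, median and highest value in females, and 0, 0.0919 and 18.1 CPM in males, and 13 animals were high. Gm5844, a near copy of the chaperone gene Hsp90aa1 that was high in 10 animals, had 2.23 ± 0.84 (adjusted p 1.00 by edgeR).

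**Figure D5:**
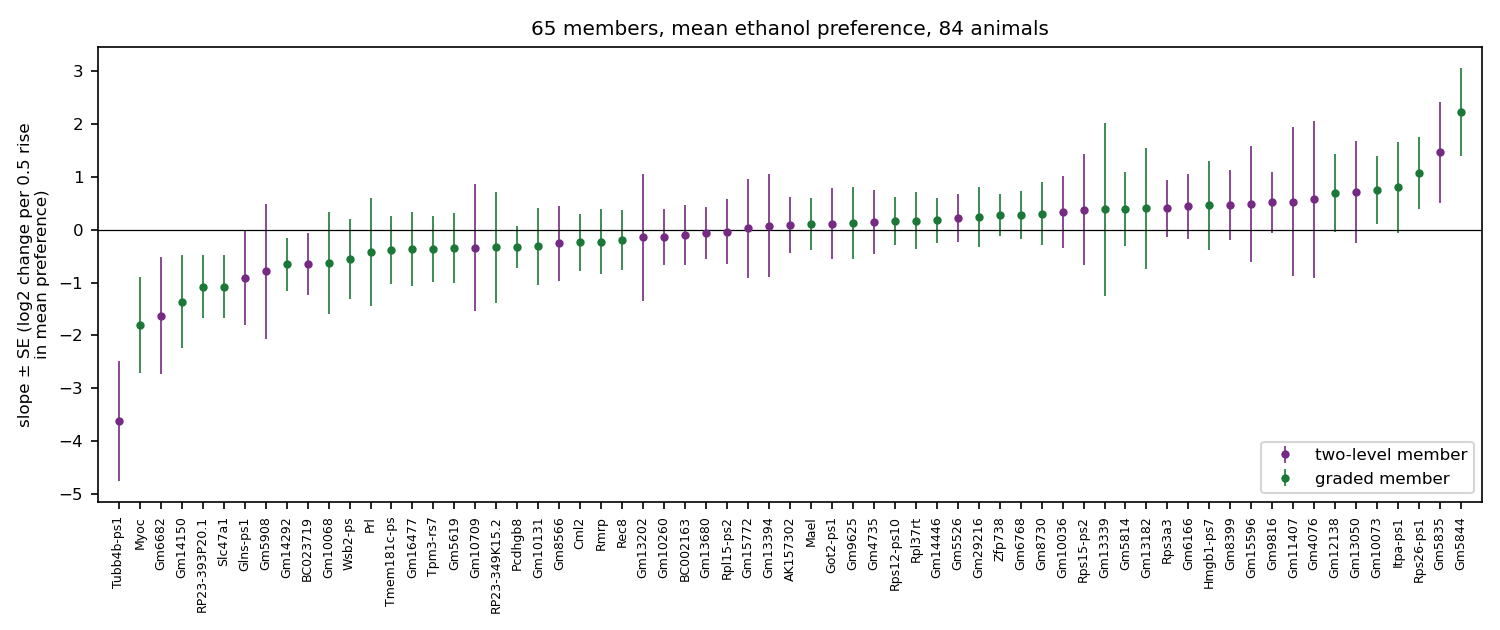
Slope on mean ethanol preference (log2 change per 0.5 rise, points) with its SE (bars) for 65 of the 66 members, from edgeR's fit in 84 animals with sex as a term, purple for two-level and green for graded members. Slopes spread to both sides of 0, most bars cross 0, and Tubb4b-ps1 lies lowest at -3.62.

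For week 1 preference in all animals, 0 members were called (background 0.045%), and 6 (9.09%) had an unadjusted p under 0.05, against 3.46% of all genes. The smallest p was that of Myoc, with a slope of -2.26 ± 0.73 and an adjusted p of 0.859 by edgeR. Myoc reached 67.0 CPM in 1 female and 20.7 CPM in 1 male, against medians of 0.784 CPM in females and 0.658 CPM in males. For week 13 preference in all animals, 0 members were called (background 0%), and 1 had an unadjusted p under 0.05, against 6.42% of all genes. Tubb4b-ps1 again had the smallest p there, with -2.15 ± 0.92, and Gm13050 the second, with 1.23 ± 0.68. With the run as a covariate the slope of Tubb4b-ps1 was -1.06 ± 1.08, and by limma-voom that of Gm13050 was 2.65.

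In females, 0 members were called for mean preference (background 0.0113%), week 1 (0%) or week 13 (0.0563%). With an unadjusted p under 0.05 there were 4, 5 and 0 members, against 7.29%, 2.55% and 9.19% of all genes. The first 2 members by p were RP23-393P20.1, a near copy of Tsnax, with -2.05 ± 0.77 and Gm6682 with -3.15 ± 1.44 for mean preference. For week 1 the first was Tubb4b-ps1 with -4.88 ± 1.61, or -3.15 ± 1.60 with the run as a covariate. For week 13 the first 2 were Tubb4b-ps1 with -2.31 ± 1.18 and RP23-393P20.1 with -1.10 ± 0.60. The first of these was -0.23 ± 1.42 with the run as a covariate.

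In males, 0 members were called for mean preference (background 0.00563%), week 1 (0.0563%) or week 13 (0.0169%). With an unadjusted p under 0.05 there were 4, 1 and 2 members, against 1.87%, 4.95% and 3.89% of all genes. Rps26-ps1, a near copy of the small-subunit ribosomal protein gene Rps26, led for mean preference with 2.64 ± 0.93 and for week 1 with 2.25 ± 0.63, where its adjusted p was 0.474 by edgeR. Without male animal 39 these slopes were 1.52 ± 0.81 and 0.96 ± 0.85, and by limma-voom 0.60 and 0.94. Tubb4b-ps1 was second for mean preference with -5.12 ± 1.91. Prl was second for week 1 with -2.94 ± 1.58 and for week 13 with -3.07 ± 1.46. With the run as a covariate its week 1 slope was -1.11. For week 13 Glns-ps1, a near copy of the glutamine synthetase gene Glul, led with -3.32 ± 1.25.

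The slope on mean preference was compared between the sexes by an interaction term, male minus female. It was called in 0 members (background 0.0169%), and 0 members had an unadjusted p under 0.05, against 3.38% of all genes. DESeq2 had 2 members and limma-voom 1 at that unadjusted limit. Prl (-4.14 ± 2.21) and Rec8 (2.15 ± 1.16) had the smallest p, and both had an adjusted p of 1.00 by edgeR.

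Adding the counts of each near copy to its closest gene, a setting chosen after the data were seen, lowered their median SE and gave 0 calls. In the sex comparison the median SE of the 47 closest genes was 0.060 for the sums and 0.074 for the closest genes alone, against 0.076 for all genes tested. It was lower for the sum in 36 of 47. For mean preference it was 0.095 for the sums and 0.117 for the closest genes alone. With an unadjusted p under 0.05 there were 2 sums and 3 closest genes for mean preference, and 0 sums and 1 closest gene for sex. The sign of the estimate differed between sum and closest gene alone in 9 of 47 genes for sex and 7 for mean preference.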

How the data were processed

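The deposited values were raw counts of reads per gene, not normalized per the labels, for 84 CeA libraries. Tools named in the submitters' processing notes were FastQC, STAR, Subread, featureCounts 1.6.0 and DESeq2, on build GRCm38 (mm10). Strand setting, annotation release and the handling of multiply mapped reads are not stated there. Left unused were 3 columns with undetermined reads and 5 without values. CPM used column totals.

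Genes with a count of at least 10 in at least 8 animals (17775) were scaled by TMM and fitted with edgeR 4.0.16 (robust quasi-likelihood, R 4.3.3), with sex as a term where both sexes entered, and p-values were adjusted over all of them by the Benjamini-Hochberg method. SE is the estimate divided by the root of its F value. Alternatives were filterByExpr, a total of at least 15 counts, RLE factors, DESeq2 1.42.0, limma-voom 3.58.1, the run as a covariate, ranks of preference, and leaving out male animal 39. The fit was also run on simulated counts that did not model two-level values, so that run does not bear on its power for two-level members.

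GENCODE vM21 transcripts were compared with blastn 2.17.0 on the same strand (e-value limit 1e-10). A closest gene was the best match among mitochondrial genes and protein-coding genes with a mean CPM of at least 1. Marker scores were means of standardized log2(CPM + 0.5).

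Members and lists were chosen with earlier results of these data known. The rule named 5 two-level members with a plain symbol and 5 with a serial one, the 2 smallest p in each comparison, member pairs within 1 Mb, and members at the limits of the choice. Other names were chosen after their values were seen. 1 member named by the rule is not reported here.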

Additional observations from a re-analysis of the deposited data

How the results depend on the processing

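The count of members called was 0 in all 11 comparisons under all alternatives run, except that the sex difference called 1 member, Prl, without the filter on low counts. The cause was not tested. Among the members named for their p, the sign changed once: the slope of Prl on week 1 preference in males was -2.94 by edgeR and 0.094 by limma-voom, where the cause was not tested. By limma-voom the slopes of Tubb4b-ps1 were smaller in size by over 1.5 times: -1.84 for mean preference in all animals and -2.03 in males, -2.02 for week 1 in females, and -0.94 for week 13 in all animals and -1.19 in females. So were those on week 13 preference in males of Glns-ps1, -1.92, and Prl, -0.96, and the interaction of Prl, -0.52. The number of members, 66, was 32 with a 90th percentile of at least 10 CPM, 42 with a marker rho under 0.2 and 140 with no marker limit, since these settings choose other genes by construction. TMM-scaled totals and a 10th percentile of 0.25 CPM moved it by less than 1.5 times. The number of two-level members was 30, and stayed within 1.5 times of that at 20% in between and with TMM-scaled totals. At 5% in between it was lower by the full 1.5 times. The count of members most alike to a gene within 1 Mb of their own position, 7, was 5 with sequence relatives left out and 2 with protein-coding partners alone and relatives left out, settings added after the data were seen that allow fewer partners. It stayed within 1.5 times under the other settings, as did the count near the closest gene under all of them. filterByExpr kept 58 of the 66 members in fits of all animals, 27 in females and 28 in males, so the others, Prl and Tubb4b-ps1 among them in the sex comparison, had no value there. No paired analysis was possible because replicate numbers follow listing order and the labels give the sexes no shared numbers. Families and lanes could not enter a fit, and members low in most animals rest on few high animals.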
